A study of Mus musculus with 8 samples.

Results

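The Hox genes of the mouse were followed through a set of RNA sequencing libraries in which neural and intestinal cells had been turned into pluripotent stem cells with small molecules. Members were the rows of the 8 gene tables whose symbol was Hoxa, Hoxb, Hoxc or Hoxd followed only by digits, 38 of the 39009 entries in each table. They comprised 11 genes of the Hoxa cluster (chr6:52155590-52260880), 10 of Hoxb (chr11:96194316-96368256), 9 of Hoxc (chr15:102921103-103036843) and 8 of Hoxd (chr2:74668310-74765141), all in mm10. Hoxd4 was not analysed here. The design compared the source cells, the chemically induced pluripotent stem cell (CiPSC) lines made from them and embryonic stem cells. Neural stem cells (NSC, 1 library) were a culture at passage 2 from E13.5 embryos, and small intestinal epithelial cells (IEC, 1 library) were primary cells from embryos of the same stage. Lines 1, 2 and 3 came from NSC (NSC-CiPSC) and lines 10 and 13 from IEC (IEC-CiPSC), with 1 library each. The embryonic stem cells (ESC, 1 library) were the R1 line, strain 129X1 x 129S1. The strain of NSC was C57BL/6J-Tg(GOFGFP)11Imeg/RbrcxICR. IEC and all CiPSC lines carried the same strain label apart from the number before Imeg, which ran from 12 to 17 over those labels. The transgene is a green fluorescent reporter of Pou5f1. The labels did not say whether the lines came from separate animals or cultures, and a p-value here measures only how far these lines differ, which may be technical.

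Hox genes encode homeodomain transcription factors that give cells along the body axis their position. Within each cluster the genes lie in the order in which they are switched on from head to tail: paralogue groups with low numbers act in the hindbrain, those in the middle at neck and trunk, and those with high numbers at the tail, in the limb ends and in the genital tract. Forebrain cells keep the clusters silent, the mesoderm around the gut carries a nested Hox pattern, and in pluripotent cells the clusters are held by Polycomb repression. Here paralogue groups 1 to 3 are called anterior, 4 to 8 central and 9 to 13 posterior.

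Promoter sequence is shown for 4 members on which the results turn, 3 that were high in IEC and low in its lines (Hoxa5, Hoxb4 and Hoxb8) and 1 that was listed at 0 in both source cells and above 0 in every pluripotent library (Hoxd13). Each run is the 250 bases before the RefSeq transcription start in GRCm38.p6, read 5′ to 3′ on the strand of the gene, with CpG dinucleotides in capitals. The windows lie at chr6:52204588-52204837 on the minus strand (Hoxa5), and on the plus strand at chr11:96318017-96318266 (Hoxb4), chr11:96281655-96281904 (Hoxb8) and chr2:74667975-74668224 (Hoxd13).
Hoxa5: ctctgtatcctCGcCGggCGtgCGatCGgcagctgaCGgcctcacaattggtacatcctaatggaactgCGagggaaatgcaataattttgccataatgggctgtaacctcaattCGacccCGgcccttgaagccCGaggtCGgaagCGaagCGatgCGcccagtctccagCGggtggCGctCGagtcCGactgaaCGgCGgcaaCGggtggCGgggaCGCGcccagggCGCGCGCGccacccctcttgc
Hoxb4: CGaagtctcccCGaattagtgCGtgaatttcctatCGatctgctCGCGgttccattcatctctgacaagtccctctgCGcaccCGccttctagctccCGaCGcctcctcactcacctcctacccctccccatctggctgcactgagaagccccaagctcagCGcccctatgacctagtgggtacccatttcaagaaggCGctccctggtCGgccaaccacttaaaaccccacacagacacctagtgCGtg
Hoxb8: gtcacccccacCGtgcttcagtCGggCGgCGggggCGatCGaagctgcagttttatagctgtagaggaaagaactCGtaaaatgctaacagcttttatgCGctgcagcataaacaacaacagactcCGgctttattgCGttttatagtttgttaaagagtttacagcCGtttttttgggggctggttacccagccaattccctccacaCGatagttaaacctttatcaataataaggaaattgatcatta
Hoxd13: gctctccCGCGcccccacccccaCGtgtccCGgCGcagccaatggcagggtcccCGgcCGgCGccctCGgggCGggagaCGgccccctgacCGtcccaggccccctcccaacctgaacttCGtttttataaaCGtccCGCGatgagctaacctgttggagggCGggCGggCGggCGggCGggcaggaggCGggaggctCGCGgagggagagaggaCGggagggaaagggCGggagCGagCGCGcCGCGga
The Hoxd13 run held 31 CpG and the Hoxa5 run 28, against 14 for Hoxb4 and 12 for Hoxb8. Over windows of 300 bases (250 before and 50 after the start), 23 windows of 21 members were matched by symbol in the RefSeq table. Their median was 15 CpG and 58% G and C, beside 7 CpG and 52.7% over all 32851 windows of the table. The letters TATAAA, searched on both strands, stood in 3 of the 23 Hox windows (13.0%) and in 13.6% of all windows, and among the printed runs in those of Hoxb8 and Hoxd13. TGATTNAT, the letters of a Pbx-Hox site, stood in 2 of the 23 (8.70%) and in 3.22% of all. The retinoic acid response element, a direct repeat of AGGTCA spaced by 5 bases of any kind, stood in none of the 23 and in 3 of all windows. These matches describe letters only.

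Levels are FPKM (a fragment count divided by transcript length and by the size of the library) as deposited, which are per length and so can be set side by side between genes. All 38 members were listed at 0 in NSC. In IEC 16 members reached FPKM 1, and the 38 summed to 138. In the pluripotent libraries the same sum was 9.47, 16.3 and 11.4 (NSC-CiPSC lines 1, 2 and 3; 12.4 ± 3.52, SD, n = 3), 14.3 and 15.7 (IEC-CiPSC lines 10 and 13; 15.0 ± 1.01, SD, n = 2) and 15.6 (ESC). The lines of either origin and ESC thus lay between 9.47 and 16.3, far below IEC, and the ranges of the 2 origins overlapped. Members at FPKM 1 or more numbered 3, 4 and 2 in the NSC-CiPSC lines, 4 and 4 in the IEC-CiPSC lines and 8 in ESC. Members above 0 numbered 28 in each NSC-CiPSC line and in ESC, 30 and 33 in the IEC-CiPSC lines and 23 in IEC. In these bulk libraries fewer cells of a type and less RNA per cell cannot be told apart.

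**Figure D1:**
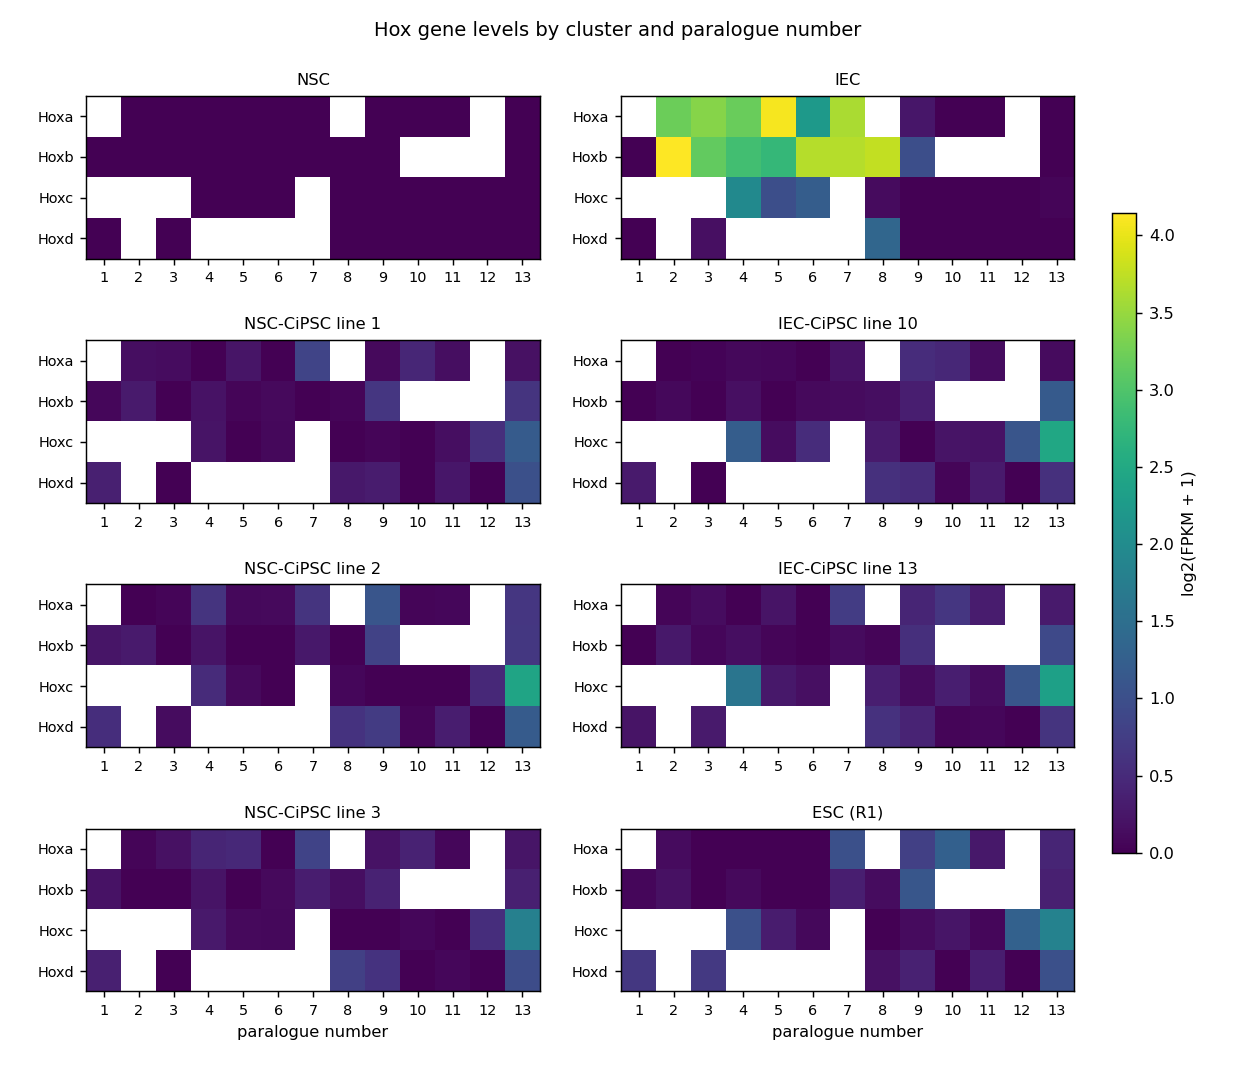
Level of each Hox gene as log2(FPKM + 1), by cluster (rows) and paralogue number (columns), in the 8 libraries; white cells have no gene or are not shown. The IEC panel holds a band at paralogue numbers 2 to 8 of Hoxa and Hoxb, with Hoxb2 at 16.7 FPKM the highest, NSC is at 0 throughout, and in the lines and ESC Hoxc13 stands out.

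FPKM sums over all entries ran from 661114 to 771389, and 50.6% to 55.7% of entries were listed at 0, with NSC at the upper end. The files give no read totals. All 38 members had the status OK in every library, and the lowest value above 0 among them was 0.0324 (Hoxa3 in IEC-CiPSC line 10). In NSC 8 of 8 neural stem cell genes were above FPKM 10, and in each pluripotent library 8 of 8 pluripotency genes were. In IEC 10 of 13 gut epithelium genes reached FPKM 1 (sum 308), but Cdx2, the intestinal homeobox gene, was at 0.0912. In the same library all 14 gut mesenchyme and smooth muscle genes reached 1 with a sum of 9755, against sums of 5.58 to 67.9 in the other 7. Of 14 liver, pancreas and blood cell genes 10 reached 1 in IEC with a sum of 10594, against 0.201 to 2.35 elsewhere. Of 9 enteric neural crest genes 3 reached 1 in IEC with a sum of 93.6, against 3.33 to 7.37 in the pluripotent libraries and 468 in NSC. Hand2 at 69.7 and Ednrb at 21.2 made up most of that sum, and Sox10 stood at 0.449. The part of these other cell types in the Hox levels of IEC was not tested.

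The silence of NSC covered every cluster and every paralogue group. Genes that mark forebrain and midbrain were high in the same library: Lhx2, a forebrain homeobox gene, stood at 56.9 FPKM and Emx2, a cortical patterning gene, at 24.6. Of 13 such genes 8 reached FPKM 1 in NSC, among them Otx1 at 10.5, whereas Nkx2-1, a ventral forebrain gene, was at 0.0498 and En1, a midbrain gene, at 0.0544. In IEC 1 of the 13 reached 1, which was Lhx2 at 1.85. IEC stood above NSC at least 4-fold on the log2(FPKM + 1) scale for 13 of the 38 Hox genes and below it for 0. Over all 17067 genes tested, 24 of the 38 among them, those shares were 10.3% and 4.68%. With NSC at 0 for every member none could lie below it, so nothing is read from the 0. With 1 library of each kind this difference has no replicate check.

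In IEC the Hox levels formed a band from paralogue group 2 to group 8. Of the anterior genes, Hoxb2 and Hoxa2, which pattern the hindbrain and the pharyngeal arches, stood at 16.7 and 8.27 FPKM, and Hoxa3 and Hoxb3, needed for organs of the pharynx and neck, at 9.51 and 7.89. Hoxb1 and Hoxd1 were listed at 0. The central genes held 68.2% of the summed Hox level, the anterior ones 30.9% and the posterior ones 0.890%. Among the central genes Hoxa5, which acts in lung and gut mesoderm, was the highest at 15.9, followed by Hoxb8 at 12.7, Hoxb6 and Hoxb7 at 11.8 each and Hoxa7 at 11.2. Confidence intervals of the file separated the first of these from the last (Hoxa5 from 14.1 to 17.8, Hoxa7 from 9.16 to 13.3), while Hoxb8, Hoxb6, Hoxb7 and Hoxa7 overlapped one another. Hoxa4, Hoxb4, Hoxb5 and Hoxa6 lay lower, at 8.12, 6.41, 5.79 and 3.75. Group sums for numbers 2 to 8 ran from 14.3 (group 8) to 24.9 (group 2), and the sum fell to 1.19 for group 9, of which Hoxb9 gave 0.997. Of the 16 posterior genes 0 reached FPKM 1, and 13 were listed at 0. The file intervals cover the error within a library only.

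Level also differed by cluster. Hoxb held 53.5% of the IEC sum and Hoxa 41.4%, with 7 of 10 and 6 of 11 genes at FPKM 1 or more. Hoxc held 3.87% and Hoxd 1.23%. The highest 3 of Hoxc were Hoxc4 (2.89), Hoxc6 (1.34) and Hoxc5 (1.00), while of Hoxd there were Hoxd8 (1.58, file interval 0.125 to 3.05) and Hoxd3 (0.123), with the other 6 listed at 0. Within a paralogue group the copies were therefore unequal: Hoxa4 and Hoxb4 at 8.12 and 6.41 stood above Hoxc4 at 2.89, and Hoxb8 at 12.7 above Hoxd8 at 1.58 and Hoxc8 at 0.0896. Some member loci overlap in the annotation. Hoxa3 spans Hoxa4, Hoxa5 and Hoxa6 and overlaps part of Hoxa2. Hoxc5 spans Hoxc6, Hoxc8 and Hoxc9 and overlaps part of Hoxc10, and Hoxd10 and Hoxd11 overlap in part. The split of fragments between these genes thus rests on the counting.

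On the way from IEC to its lines 13 of the 38 Hox genes fell and 3 rose (limma, Benjamini-Hochberg adjusted over 17067 genes, called at an adjusted p under 0.05 and a 2-fold difference on the log2(FPKM + 1) scale). Of all genes tested 26.2% were called lower and 19.1% higher. A gene entered the test by reaching FPKM 1 in 1 library, as 24 members did, and members that entered only through IEC had to differ, so counts are given over the 38. The 13 that fell were Hoxa2 to Hoxa7 and Hoxb2 to Hoxb8, which is every Hoxa and Hoxb gene of groups 2 to 8. All of the 13 but Hoxa7 reached FPKM 1 in IEC alone and entered the test only through it. A lower level in the lines was thus fixed in advance for them, and nothing is read from those calls. The IEC levels of the 13 ran from 3.75 to 16.7 FPKM. Means of the 13 in the 2 lines were 0% to 3.64% of these, with a median of 0.607%. For all 13 the file interval in IEC lay above the intervals of all 6 pluripotent libraries.

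**Figure D2:**
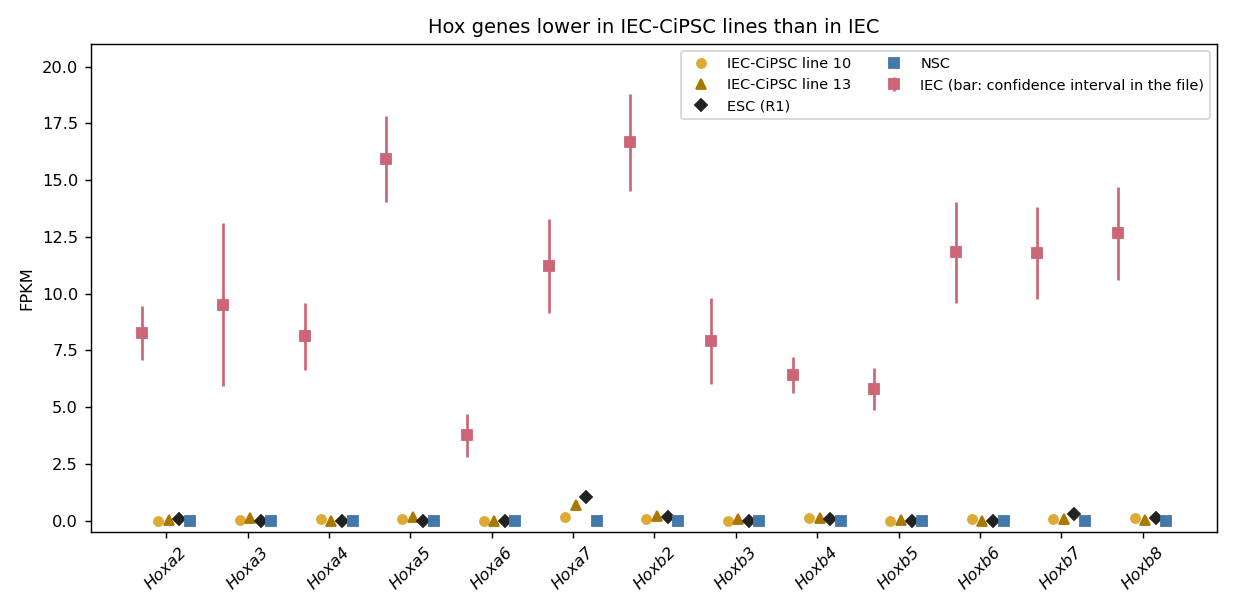
FPKM of the 13 Hox genes that fell in the IEC route, in IEC (square with the confidence interval of the file), IEC-CiPSC lines 10 and 13, ESC and NSC. IEC levels lie between 3.75 and 16.7 and both lines at or below 0.662.

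Hoxb2 was at 16.7 FPKM in IEC, 0.0659 and 0.197 in IEC-CiPSC lines 10 and 13 and 0.137 in ESC. Its log2 difference was -3.97 ± 0.17 (SE; adjusted p = 0.000177, limma). Hoxa5 was at 15.9 in IEC, 0.0561 and 0.168 in the lines and 0 in ESC (-3.93 ± 0.18, adjusted p = 0.000237). Both genes were far lower in each line than in IEC, and the lines were at or near the ESC level. Hoxb8, known for its hold on myeloid progenitors, was at 12.7 in IEC, 0.115 and 0.0382 in the lines and 0.105 in ESC (-3.67 ± 0.09, adjusted p = 3.05e-05). Hoxb4, a gene of blood stem cells, was at 6.41 in IEC, 0.119 and 0.118 in the lines and 0.0739 in ESC (-2.73 ± 0.03, adjusted p = 2.70e-06). The 2 lines were alike for Hoxb4 and differed for Hoxb8, though both values there rest on few fragments. Hoxa7, a trunk gene, kept the highest level of the 13 in the lines, at 0.156 and 0.662 against 11.2 in IEC and 1.03 in ESC (-3.14 ± 0.26, adjusted p = 0.00112). It was also the only 1 of the 13 to reach FPKM 1 in ESC. The other 8 fell by 2.25 (Hoxa6) to 3.63 (Hoxb6) on the log2 scale. In each of the 13 genes both lines stood below IEC, and adjusted p ran from 2.70e-06 to 0.00140. For all but Hoxa7 nothing is read from these p-values, since the direction was fixed by how the genes entered the test.

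None of the Hoxc and Hoxd genes of the IEC band was called lower. Hoxc4 was at 2.89 FPKM in IEC and still at 1.33 and 2.05 in the lines and 1.03 in ESC (-0.55 ± 0.22, adjusted p = 0.0953, limma). Hoxc6 was at 1.34 in IEC, 0.447 and 0.130 in the lines and 0.0664 in ESC, a difference of -0.87 ± 0.16 that passed the p threshold (adjusted p = 0.0117) but not the 2-fold one. Hoxd8 was at 1.58 in IEC, 0.483 and 0.502 in the lines and 0.143 in ESC (-0.79 ± 0.23, adjusted p = 0.0423), also under 2-fold. Both lines stood below IEC for all 3 genes, but the file intervals of Hoxc4, Hoxc6 and Hoxd8 in IEC (from 2.06, 0.696 and 0.125) do not clear every pluripotent library. Without IEC-CiPSC line 10 the Hoxc6 difference was -1.05 (adjusted p = 0.00407), which was called. Hoxc5 at 1.00 in IEC and 0.103 and 0.206 in the lines just missed the level for a test. Hoxb9, the most posterior gene of the continuous Hoxb run, was at 0.997 in IEC, 0.277 and 0.473 in the lines and 1.15 in ESC (-0.54 ± 0.20, adjusted p = 0.0802).

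In the lines and ESC 10 of the 38 genes reached FPKM 1 in at least 1 library and 28 did not. Of the 10, 7 were posterior genes. Paralogue group 13 held 35.7% ± 5.21 (SD, n = 3) of the summed Hox level in the NSC-CiPSC lines, 40.7% ± 5.68 (SD, n = 2) in the IEC-CiPSC lines and 27.2% in ESC, against 0.0300% in IEC. The posterior genes as a whole held 55.8% ± 5.52 (SD, n = 3), 64.1% ± 5.73 (SD, n = 2) and 64.3%. The sum of a few FPKM stands behind these shares.

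**Figure D3:**
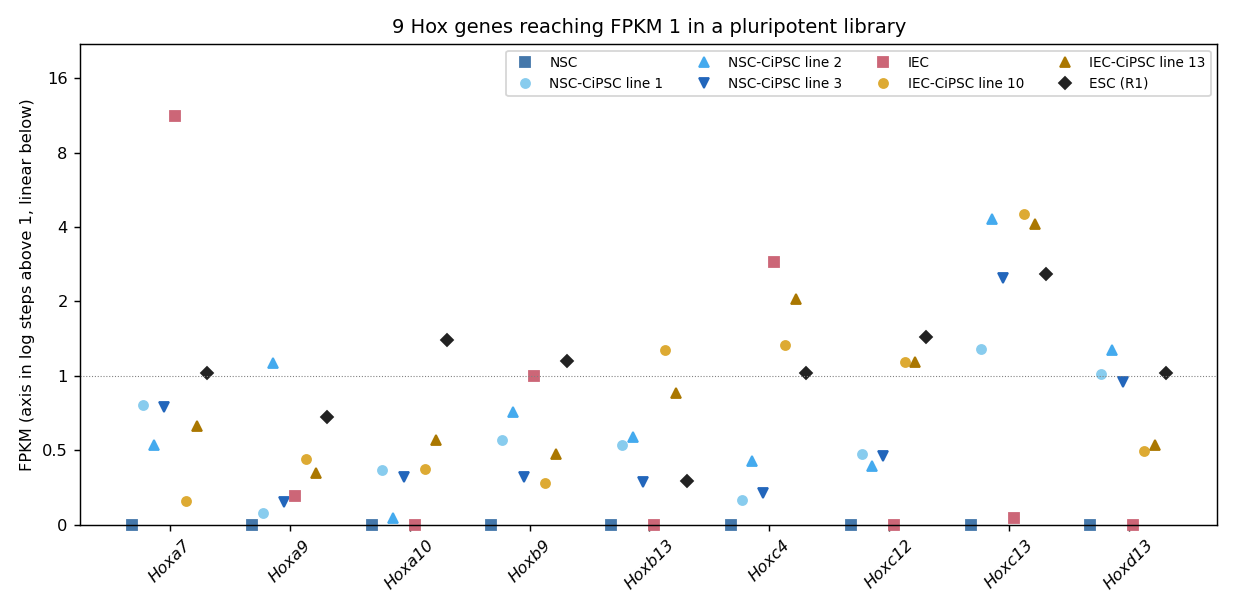
FPKM of 9 of the 10 Hox genes that reached 1 in a CiPSC line or in ESC, in all 8 libraries (axis linear up to 1 and in log steps above). Hoxc13 is above 1 in all 6 pluripotent libraries, and the NSC squares lie at 0 for all 9 genes.

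Hoxc13, a gene of hair and nail formation, was the highest member in every pluripotent library except NSC-CiPSC line 1. Its level was 1.29, 4.32 and 2.48 FPKM in NSC-CiPSC lines 1, 2 and 3, 4.53 and 4.10 in IEC-CiPSC lines 10 and 13 and 2.59 in ESC, with NSC at 0 and IEC at 0.0416. The file intervals imply 30, 91, 59, 109, 99 and 60 fragments in the 6 pluripotent libraries and 1 in IEC. All 6 pluripotent libraries thus lay above both source cells, and NSC-CiPSC line 1 was the lowest of them. Hoxd13, a gene of digit formation, was at 1.02, 1.27 and 0.959 in the NSC-CiPSC lines, and 0.494 and 0.533 in the IEC-CiPSC lines. ESC stood at 1.03, and neither source cell had a value above 0. The level in the IEC-CiPSC lines was below that of the other 4 pluripotent libraries.

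Hoxb13, known from prostate and tail, was at 0.532, 0.589 and 0.285 in the NSC-CiPSC lines, 1.27 and 0.887 in the IEC-CiPSC lines and 0.292 in ESC. Hoxc12 was at 0.472, 0.392 and 0.463 in the NSC-CiPSC lines, 1.14 in both IEC-CiPSC lines and 1.43 in ESC. Both genes were listed at 0 in both source cells, and both were higher in each IEC-CiPSC line than in each NSC-CiPSC line. Hoxc4, a central gene, was at 0.164, 0.424 and 0.215 in the NSC-CiPSC lines, 1.33 and 2.05 in the IEC-CiPSC lines and 1.03 in ESC. Of 4 further genes, Hoxa10, active in uterus and hindlimb, reached 1.40 in ESC and 0.568 at most in a line, Hoxb9 1.15 in ESC and 0.758 at most, Hoxa7 1.03 and 0.806, while Hoxa9, a gene of blood progenitors, reached 1.13 in NSC-CiPSC line 2 and 0.437 at most in any other line. Among the pluripotent libraries 3 of these 4 were highest in ESC.

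Since NSC was at 0 for every member, no Hox gene could be lower in its lines. In the NSC-CiPSC lines 3 of the 38 rose over NSC, and over all genes tested 18.3% were called higher and 20.7% lower. They included Hoxd13 (1.06 ± 0.10, SE, on the log2(FPKM + 1) scale, adjusted p = 0.00198, limma) and Hoxc13 (1.80 ± 0.50, adjusted p = 0.0409). Both were above NSC in 3 of 3 lines. Hoxb4 and Hoxc12 passed the p threshold with differences of 0.21 and 0.53, under 2-fold, and 8 members had an unadjusted p under 0.05. The Hoxc13 call was lost without NSC-CiPSC line 3 (adjusted p = 0.102), without IEC-CiPSC line 10 (0.0931) and without IEC-CiPSC line 13 (0.0931), and the Hoxd13 difference was 0.99 without NSC-CiPSC line 2. With a pseudocount of 0.1 in place of 1, which weighs low levels more, 10 of the 38 members were called higher. Of all 17067 genes tested 4035 were called higher in that setting, and nothing is read from the 10.

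Against IEC, 3 members rose in the IEC-CiPSC lines: Hoxc13 (2.35 ± 0.53, adjusted p = 0.0214, limma), Hoxc12 (1.10 ± 0.05, adjusted p = 0.000211) and Hoxb13 (1.05 ± 0.18, adjusted p = 0.00998). All 3 are posterior genes and were above IEC in 2 of 2 lines. Hoxc12 and Hoxb13 were listed at 0 in IEC, so only a rise was possible. Hoxb13 also entered the test through IEC-CiPSC line 10 alone, and nothing is read from the direction of either call. Hoxd13 (0.60 ± 0.10, adjusted p = 0.00970) passed the p threshold under 2-fold. The Hoxb13 call was lost when the fit held only IEC and its lines (adjusted p = 0.0522), and without IEC-CiPSC line 10 the gene did not reach the level for a test. Hoxc13 again rested on single lines, with an adjusted p of 0.0551 without NSC-CiPSC line 3, 0.0871 without IEC-CiPSC line 10 and 0.0801 without IEC-CiPSC line 13. The difference between the routes was called for 15 members with the change in the neural route the more positive, a direction in which 17.5% of all genes tested were called. With every member at 0 in NSC none could fall in the neural route, so this direction was fixed by the source levels and nothing is read from the count. Quantile normalization moved the median difference of all genes between IEC-CiPSC and IEC from -0.02 to 0.13 and the split from 3259 higher and 4468 lower to 4034 and 3689. The Hox counts were 3 higher and 13 lower on both scales.

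**Figure D4:**
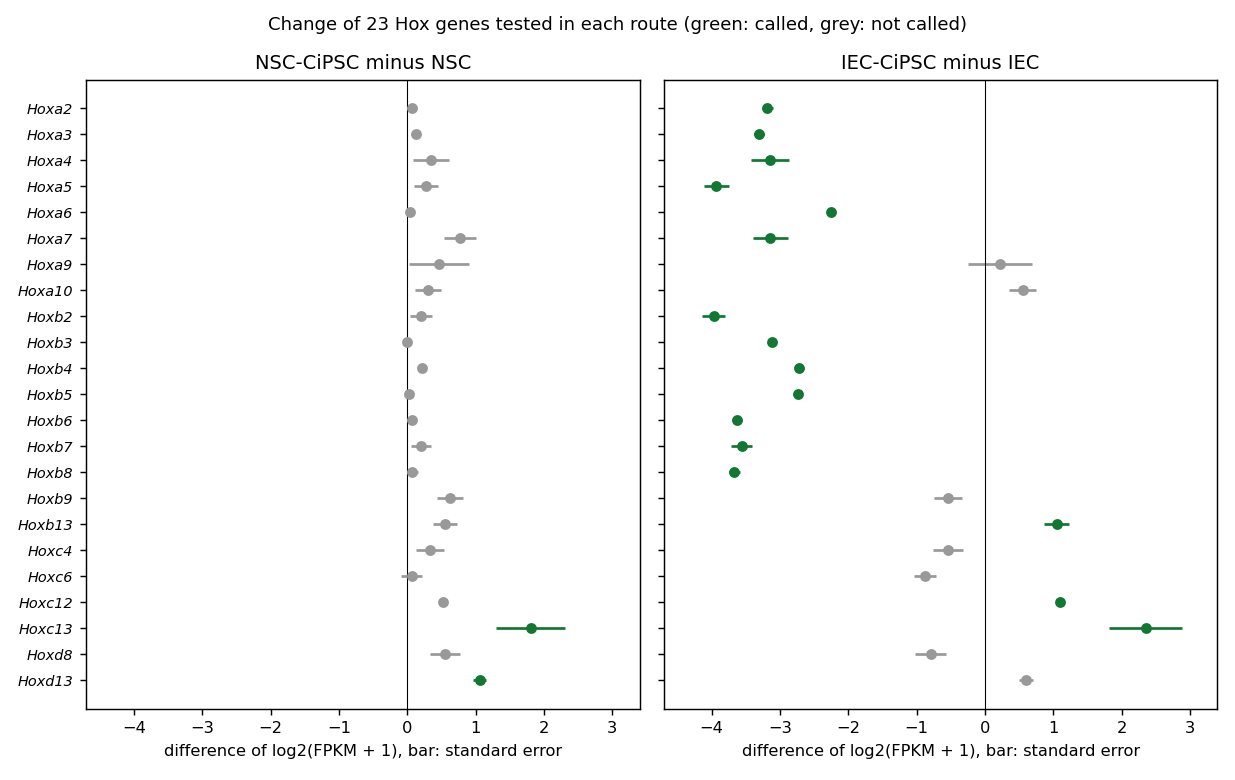
Difference of log2(FPKM + 1) between lines and source for 23 of the 24 Hox genes tested, with standard errors, in the neural route (left) and the intestinal route (right); called genes are green. The 13 genes of groups 2 to 8 lie between -3.97 and -2.25 on the right and near 0 on the left, where NSC was at 0.

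Set against ESC, 0 of the 38 were called in the NSC-CiPSC lines, where 2.82% of all genes tested were called in either direction, and 0 in the IEC-CiPSC lines, where 3.37% were (limma). Those shares stand for 482 and 575 genes, and leaving out any 1 line gave 189 to 731 and 160 to 900. Only 24 of the 38 members were tested, and beside shares this low nothing is read from 0 calls. At an unadjusted p under 0.05 there were 4 (Hoxb4, Hoxc12, Hoxc4 and Hoxa10) and 5 (Hoxb13, Hoxb9, Hoxc12, Hoxd13 and Hoxa10). Hoxc12 in the NSC-CiPSC lines passed the adjusted threshold (-0.75 ± 0.05, adjusted p = 0.00749) but stayed under 2-fold on this scale, and it was called with a pseudocount of 0.1. Hoxa10 was the gene furthest below ESC in both origins, by -0.96 ± 0.19 (adjusted p = 0.0822) and -0.71 ± 0.20 (adjusted p = 0.138). The 13 genes that had been high in IEC differed from ESC by at most 0.55 in the IEC-CiPSC lines (Hoxa7, -0.55 ± 0.26, adjusted p = 0.293), and for the other 12 by at most 0.23. With 1 ESC library these comparisons rest on the spread between lines, and a missed threshold does not show that levels were alike.

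Between the lines of the 2 origins 1 of the 38 genes, 24 of them tested, was called, where 4.29% of all genes tested (732) were in either direction. That background fell to 358, 139, 124 and 105 genes without NSC-CiPSC line 2, NSC-CiPSC line 3, IEC-CiPSC line 10 and IEC-CiPSC line 13. Hoxc4 was lower in the NSC-CiPSC than in the IEC-CiPSC lines by 1.08 ± 0.16 (adjusted p = 0.0358, limma), with all 3 lines below both others. That call was lost when any 1 of the 5 lines was left out, with adjusted p from 0.0684 (without NSC-CiPSC line 1) to 0.160 (without IEC-CiPSC line 13). Hoxc12 (-0.57 ± 0.04, adjusted p = 0.00864) and Hoxd13 (0.46 ± 0.08, adjusted p = 0.0441) passed the p threshold under 2-fold, and 5 members had an unadjusted p under 0.05. The FPKM ranges of the origins did not overlap for 13 of the 38 genes, 8 higher in the IEC-CiPSC lines and 5 in the NSC-CiPSC lines. Among the tested genes this held for 8 of 24 members, and for 47.7% of all genes, so nothing is read from the count. The 8 higher in the IEC-CiPSC lines included 6 of the 9 Hoxc genes (Hoxc4, Hoxc5, Hoxc6, Hoxc8, Hoxc10 and Hoxc12). Of these, Hoxc5, Hoxc8 and Hoxc10 lay at only 0.103 to 0.274 FPKM in the IEC-CiPSC lines and were not tested. The Hoxc cluster summed to 8.09 and 8.36 FPKM in the IEC-CiPSC lines, 2.14, 5.27 and 3.35 in the NSC-CiPSC lines and 5.67 in ESC. The cluster sum was highest in the IEC-CiPSC lines, where Hoxc13 alone stood at 4.53 and 4.10. For Hoxc13 the origins overlapped, with NSC-CiPSC line 2 at 4.32. The Hoxa cluster lay the other way, at 2.28 and 3.59 against 3.70, 5.62 and 4.15, with ESC at 4.93. In the IEC-CiPSC lines Col1a1, a gut mesenchyme and smooth muscle list gene, stood at 16.7 and 17.0 FPKM, against 1.81 to 3.47 in the NSC-CiPSC lines, 1.36 in ESC and 1873 in IEC. Over that list 3 of 14 genes were called higher in the IEC-CiPSC than in the NSC-CiPSC lines, with sums of 57.7 and 67.9 against 16.6 to 31.3. Against ESC 2 of the 14 were called higher in the IEC-CiPSC lines and 0 lower, where 3.37% of all genes tested were called. They were Col1a1 (2.92 ± 0.32) and Col1a2 (2.37 ± 0.23), while Acta2 (3.13 ± 0.48) was not called. Lum, a defining fibroblast gene of the list, stood at 0.10 and 0.050 in the IEC-CiPSC lines. It was above ESC there by 0.10 ± 0.06 (adjusted p = 0.363, limma), which was not called. The part of these list genes in the Hoxc levels was not tested.

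Noncoding transcripts of the clusters followed the coding genes in IEC. Within the clusters or 60 kb of them lay 56 other entries, of which 12 reached FPKM 1 in a library and 34 were at 0 in all, the microRNA entries Mir10a, Mir10b, Mir196a-1, Mir196a-2, Mir196b and Mir615 among the latter. Hoxb3os, which overlaps Hoxb2 and Hoxb3, was at 12.6 FPKM in IEC, 0.0889 and 0.133 in the IEC-CiPSC lines and 0 in NSC and ESC (-3.62 ± 0.05, adjusted p = 4.78e-06, limma). Hoxb5os was at 11.2 in IEC and 0 in the other 7 libraries (-3.61 ± 0.02, adjusted p = 1.46e-06). Its lines showed no spread, so this SE and p rest on the moderation alone. Hoxaas2 fell from 8.29 to 0 in both lines (-3.22 ± 0.08, adjusted p = 3.49e-05), and Hoxaas3 from 3.98 to 0.514 and 0.517 (-1.72 ± 0.25, adjusted p = 0.00578). The IEC levels of these 4 lay within the range of the coding genes that fell, and both lines were low. All 4 reached FPKM 1 in IEC alone and entered the test only through it. A lower level in the lines was thus fixed in advance, and nothing is read from the 4 calls. Hotairm1, of the Hoxa cluster, was at 13.3 in IEC, 0 and 2.76 in lines 10 and 13, 0.387, 2.65 and 0.378 in the NSC-CiPSC lines and 0.196 in ESC, and did not pass the test (-2.88 ± 1.07, adjusted p = 0.0815). The kit named in the labels does not mark strand, so reads of these transcripts and of the Hox genes they overlap cannot be told apart by strand.

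**Figure D5:**
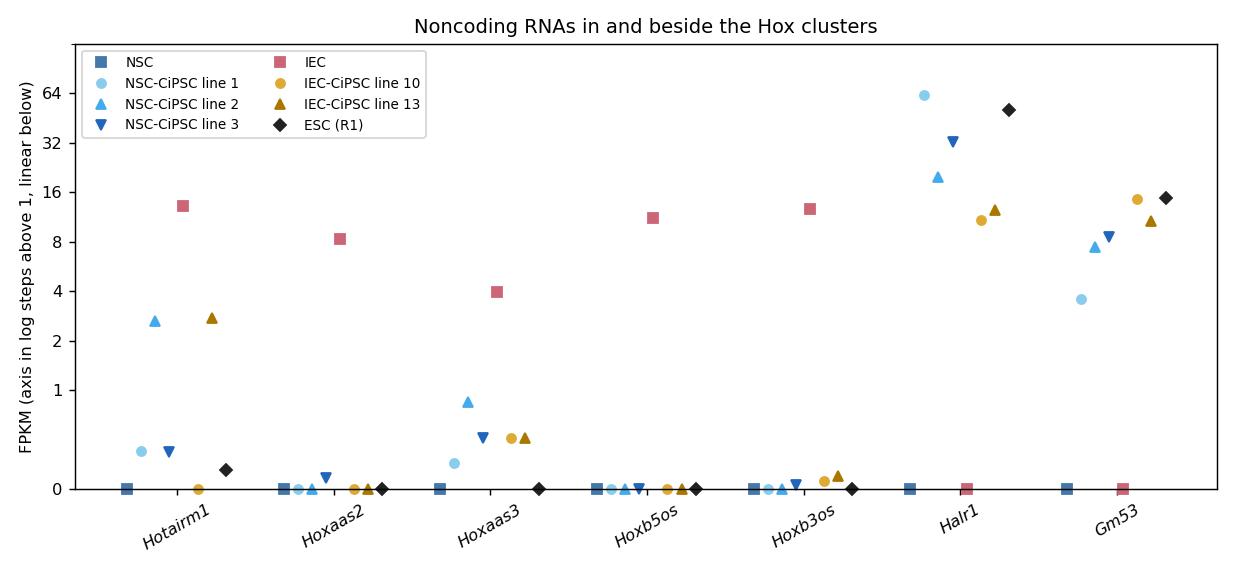
FPKM of 7 noncoding entries in or beside the Hox clusters in the 8 libraries (axis linear up to 1 and in log steps above). The first 5 are highest in IEC, while Halr1 and Gm53 are at 0 in NSC and IEC and between 3.62 and 62.4 in the lines and ESC.

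The opposite pattern was seen in a pair of entries beside or between the coding genes. Halr1, a long noncoding RNA beside the Hoxa cluster, was at 62.4, 19.9 and 32.4 FPKM in the NSC-CiPSC lines, 10.9 and 12.6 in the IEC-CiPSC lines and 50.8 in ESC, and at 0 in both source cells. It rose in both routes (5.15 ± 0.66, adjusted p = 0.00473, and 3.67 ± 0.70, adjusted p = 0.0129, limma). Gm53, inside the Hoxb cluster 6589 bases from Hoxb9, was at 3.62, 7.48 and 8.51, at 14.5 and 10.7 and at 14.7 in ESC, again with 0 in both source cells (2.85 ± 0.49, adjusted p = 0.0111, and 3.75 ± 0.52, adjusted p = 0.00531). In each pluripotent library both were above every coding Hox gene of that library. The highest coding value in any of them was Hoxc13 at 4.53 in IEC-CiPSC line 10. For Gm53 the step was not large in every line, with 7.48 against 4.32 for Hoxc13 in NSC-CiPSC line 2. Hotair, between Hoxc11 and Hoxc12, was at 0.0749 at most and Hottip, beside Hoxa13, at 0.0459 at most.

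Partners and regulators of the Hox genes were read from lists chosen with earlier results known. Of the 9 TALE homeodomain cofactors, which bind DNA together with Hox proteins, 5 fell and 1 rose in each route. The median was -1.01 in the neural route, beside 0.03 for all genes, and -2.54 in the intestinal route, beside -0.02. Of all genes tested 20.7% fell and 18.3% rose in the neural route, and 26.2% fell and 19.1% rose in the intestinal one. Meis1 had 5.74 FPKM in the neural and 39.6 in the intestinal source library and at most 0.534 in any line (-2.33 ± 0.24 and -5.07 ± 0.26, adjusted p = 0.00270 and 0.000293). Meis2 had 50.2 in NSC and 2.14, 1.27 and 0.569 in its lines, and 57.7 in IEC and 10.4 and 6.52 in its lines. It fell in both routes (-4.52 ± 0.48 and -2.67 ± 0.51), the 1 that rose was Pbx2 in the neural route (1.05 ± 0.10) and Pbx4 in the intestinal route (1.92 ± 0.26). Against ESC 0 of 9 were called in the NSC-CiPSC lines and 1 (Pknox2, 1.30 ± 0.15, adjusted p = 0.0282) in the IEC-CiPSC lines.

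Of 17 genes for the supply and reception of retinoic acid, a signal that opens the anterior end of the clusters, 13 were tested. In the intestinal route 6 fell and 0 rose (26.2% and 19.1% over all genes tested). Aldh1a1 and Aldh1a2, which make retinoic acid, were at 42.5 and 37.0 FPKM in IEC and at 0 and 0.0506 and at 3.33 and 2.68 in its lines (-5.41 ± 0.07, adjusted p = 4.19e-06, and -3.25 ± 0.25, adjusted p = 0.000940). In the neural route 5 rose and 3 fell (18.3% and 20.7% over all genes tested). Crabp1, a retinoic acid binding protein, rose from 1.20 in NSC to 23.1, 45.7 and 48.5 (4.12 ± 0.48, adjusted p = 0.00361), and the receptor Rarg from 2.34 to 71.5, 43.3 and 40.8 (3.94 ± 0.42, adjusted p = 0.00288). Rarg was at 7.98 and 12.1 in the IEC-CiPSC lines and 78.2 in ESC, and it was higher in the NSC-CiPSC than in the IEC-CiPSC lines by 2.24 ± 0.33 (adjusted p = 0.0350). Of the ParaHox genes, relatives of the Hox clusters, Cdx1 rose in both routes, from 0 in NSC to 8.10, 13.1 and 11.8 and from 0.182 in IEC to 7.66 and 12.1 (3.56 ± 0.38, adjusted p = 0.00283, and 3.17 ± 0.40, adjusted p = 0.00394), with ESC at 3.60. Cdx2 and Cdx4 stayed at or under 0.565 in all libraries.

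Among 8 regulators of hindbrain Hox genes 5 were tested, of which 1 rose and 2 fell in the neural route and 1 rose and 3 fell in the intestinal route. Nr2f1 was high in both source cells, at 32.2 in NSC and 23.2 in IEC, and at most 0.253 in a line, and Nr2f2 was at 28.3 in IEC and at most 0.117 in its lines (-4.75 ± 0.05, adjusted p = 2.76e-06). Nr6a1, a nuclear receptor of early embryos, went the other way, from 0.432 in NSC to 11.7, 20.0 and 15.1 (3.50 ± 0.31, adjusted p = 0.00185) and from 0.992 in IEC to 8.58 and 9.13 (2.31 ± 0.33, adjusted p = 0.00580). Of 10 posterior and tail bud signals 6 were tested, and 1 rose and 2 fell in the neural route and 1 rose and 3 fell in the intestinal route. Over all genes tested 18.3% rose and 20.7% fell in the neural route, and 19.1% rose and 26.2% fell in the intestinal route. With 5 and 6 genes tested, nothing is read from the counts of these 2 lists. Fgf17, a growth factor gene, rose in both routes (2.79 ± 0.39 and 3.09 ± 0.41), while Wnt5a, a Wnt ligand of the growing tail and gut, fell in both (-3.15 ± 0.14 and -4.39 ± 0.15).

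The chromatin groups that act on the clusters moved in both directions. Of 25 Polycomb genes 10 rose and 6 fell in the neural route, where 18.3% of all genes tested rose and 20.7% fell. In the intestinal route 11 rose and 6 fell, where 19.1% of all genes rose and 26.2% fell. Suz12, a core part of the complex that sets the H3K27 methyl mark, was at 21.8 FPKM in NSC, 57.0, 61.9 and 59.9 in its lines, 15.4 in IEC and 97.8 and 100.6 in its lines, with ESC at 59.0 (1.41 ± 0.07, adjusted p = 0.000430, and 2.61 ± 0.07, adjusted p = 5.20e-05). Cbx7, which reads that mark, rose by 5.07 ± 0.27 and 4.06 ± 0.29 (adjusted p = 0.000530 and 0.000742), while Bmi1, of the second Polycomb complex, fell by 2.21 and 1.44. Suz12 was lower in both source cells than in any line. Of 11 Trithorax and H3K27 demethylase genes 4 rose and 1 fell in the neural route and 6 rose and 1 fell in the intestinal route. Against ESC 0 of the 25 and 0 of the 11 were called in either origin. In the IEC-CiPSC lines 3 Polycomb genes passed the p threshold under 2-fold. They were Rbbp7 (0.94 ± 0.07, adjusted p = 0.0143, limma), Suz12 (0.74 ± 0.07, adjusted p = 0.0230) and Aebp2 (-0.89 ± 0.09, adjusted p = 0.0229). Between origins 1 gene was called, the Polycomb partner Aebp2, higher in the NSC-CiPSC lines by 1.17 ± 0.07 (adjusted p = 0.00685).

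Of 19 genes flanking the clusters 18 were tested, and 5 rose and 1 fell in the neural route, where 18.3% of all genes rose and 20.7% fell. In the intestinal route 6 rose and 3 fell, where 19.1% of all genes rose and 26.2% fell. Skap2, beside Hoxa, was at 51.3 FPKM in IEC and 31.7 and 32.4 in its lines, and Mtx2, beside Hoxd, at 25.2 and 33.1 and 31.0. Neither was called. Calcoco2, an autophagy receptor gene near Hoxb, went from 0 in IEC to 181 and 217 FPKM and from 0.134 in NSC to 31.0, 59.0 and 44.1 (7.64 ± 0.41, adjusted p = 0.000340, and 5.29 ± 0.38, adjusted p = 0.00111), while the Hoxb genes of groups 2 to 8 nearby fell or stayed near 0. Jazf1, further out from Hoxa, fell in both routes (-1.42 ± 0.15 and -3.07 ± 0.16).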

How the data were processed

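RNA came from RNeasy Plus Mini kits and was built into libraries by an NEBNext Ultra kit, per the labels' protocols. The authors deposited FPKM values with their confidence bounds, for which the submitters' processing notes name TopHat, Cufflinks and the mm10 build. Their versions, the annotation and read totals are not given in the sources used here. Depth and its precision are therefore unknown. Loci count their start from 0 (70.1% of matched entries equal GENCODE M21 when 1 is added), so 1 was added to starts. Hoxd4 has no value here. The members, lists and tests were chosen with earlier results of these data known.

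The deposited FPKM were put on a log2 scale as log2(FPKM + 1). The 17067 genes that reached FPKM 1 in any library were fitted with 1 mean for each of 5 groups over all 8 libraries in limma 3.58.1 (R 4.3.3), with empirical Bayes moderation and trend, 3 residual degrees of freedom, and Benjamini-Hochberg adjustment over all genes tested. Calls required a 2-fold difference on this scale beside an adjusted p under 0.05, which understates changes of low genes. NSC, IEC and ESC have 1 library each and were assumed to vary like the lines. Named were all members at FPKM 1 in a line or ESC, called members, and the highest 3 of each cluster in IEC; of the other lists, chiefly the called genes with the largest change. Fragment numbers are those implied by the bounds, and 89 of 198 values above 0 gave a whole number within 0.05. Foxf1, Tubb3 and Hoxc13os were not matched. Alternatives changed the pseudocount, filter, scaling, moderation, groups fitted, status filter and lines. Promoters are from the RefSeq table (GRCm38.p6). Some genes are not reported here, in the text or the figures, though counts and sums over lists include them.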

Additional observations from a re-analysis of the deposited data

Results flagged for a closer look

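A different change from source to line in the neural and the intestinal route was called for 15 of the 38 Hox genes. In that direction, the neural change the more positive, 17.5% of all genes tested were called. The test was the interaction contrast in limma (change in the NSC route minus change in the IEC route, on the log2(FPKM + 1) scale, Benjamini-Hochberg adjusted over 17067 genes). The difference was 4.2 for Hoxa5, 3.91 for Hoxa7, 3.491 for Hoxa4, 3.428 for Hoxa3, 3.255 for Hoxa2 and 2.282 for Hoxa6. In the Hoxb cluster it was 4.168 for Hoxb2, 3.756 for Hoxb7, 3.737 for Hoxb8, 3.699 for Hoxb6, 3.114 for Hoxb3, 2.941 for Hoxb4 and 2.755 for Hoxb5. These 13 had adjusted p of at most 0.00447. Smaller differences were found for Hoxd8 (1.345, adjusted p = 0.0358) and Hoxb9 (1.164, adjusted p = 0.0371). Each of these 2 calls was lost in 6 of 11 alternatives, 4 of them with 1 line left out (adjusted p up to 0.114 for Hoxd8 and 0.113 for Hoxb9). The Hoxd8 call was lost without NSC-CiPSC lines 2 or 3 and without IEC-CiPSC lines 10 or 13, and the Hoxb9 call without NSC-CiPSC lines 1 or 2 and without IEC-CiPSC lines 10 or 13. All 15 genes were listed at 0 in NSC, so the contrast holds the level of the single IEC library in full. Its direction was fixed by the source levels, and nothing is read from the count.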

How the results depend on the processing

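Of 35 calls of a Hox gene in a comparison, 28 held in every alternative in which the gene was tested and 7 were lost in at least 1, with no change of direction. All 13 falls from IEC held, with adjusted p of at most 0.0312. All of these genes but Hoxa7 had entered the main test through IEC alone, so nothing is read from their holding. With a pseudocount of 0.1 the calls were 10 in NSC-CiPSC against NSC, 1 in NSC-CiPSC against ESC (Hoxc12) and 2 between the origins. Over all 17067 genes tested they were 7825, 453 and 952 in either direction. Requiring FPKM 1 in 2 libraries left 6 members to test, removing by construction genes high in IEC alone, with 3 calls against IEC and 1 between the routes. Without a filter 0 members were called between the origins, and leaving out 1 line gave 0 to 0. Hoxd8 and Hoxb9 lost their difference between the routes under quantile normalization (0.88 and 0.82), without a filter (adjusted p = 0.0931 for Hoxd8, higher for Hoxb9) and with any of 4 lines left out. Hoxb13 lost its call against IEC when only the groups compared were fitted (adjusted p = 0.0522). Hoxc13 lost its calls without a filter (adjusted p = 0.115 against NSC and 0.0602 against IEC) and, against NSC, when only the groups compared were fitted (0.0906). The split of that difference over all genes went from 2988 higher and 2205 lower to 2592 and 2749 under quantile normalization. Hox genes called higher against IEC were 3, beside 5 with a pseudocount of 0.1 and 1 without IEC-CiPSC line 10. Over all genes, calls between the origins went from 732 to 336 without a filter and to 105 to 792 with 1 line left out. Calls against ESC went from 482 to 204 (NSC-CiPSC) and from 575 to 125 (IEC-CiPSC) when only the groups compared were fitted, and to 189 to 731 and 160 to 900 with 1 line left out. The other counts of Hox genes called in either direction stayed within 1.5 times. No paired analysis was possible because the groups compared share fewer than 2 replicate numbers: the labels number the lines 1, 2 and 3 and 10 and 13, and the other groups hold 1 library each. The files hold no counts, and most members are at few fragments outside IEC.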
